A study of Homo sapiens with 5 samples.

Results

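The SLC25 family of mitochondrial carriers was examined in BT474, an established breast cancer cell line of luminal type with amplified HER2. Members were all genes whose symbol in the authors' table begins with SLC25A and a number, which gave 47 of the 18512 gene symbols in the table. Persister cells (3 libraries) survived 9 days of 2 µM lapatinib, which blocks the kinases of HER2 and EGFR, and parental cells (2 libraries) were kept alongside in the same 0.01% DMSO without the drug. Polyadenylated RNA was sequenced, and the table gives 1 FPKM value per gene and group (fragments scaled to transcript length and to the size of the library) with a q-value of the authors' comparison. The values below are therefore the authors' group values with no SD or n, the depth is unknown, and the spread between replicates enters only through the authors' q-value. No group was treated briefly or released from the drug, so drug action, growth arrest and survival cannot be told apart. All levels below are of RNA, and neither protein levels nor transport can be read from them.

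Carriers of this family sit in the inner mitochondrial membrane, and a few in other membranes. Most exchange a metabolite or cofactor of the matrix for one of the cytosol. They let ATP out and ADP and phosphate in, export citrate for lipid synthesis, run the malate-aspartate shuttle that brings reducing equivalents into mitochondria, and supply the matrix with glutathione, iron, coenzymes and nucleotides. In a dividing tumour cell they link respiration to synthesis in the cytosol.

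Lower in persister than in parental cells were the carriers for citrate and other carboxylates, glutathione and phosphate, and the main form for aspartate and glutamate. So was the ADP/ATP carrier SLC25A5, and most of these stood at about 0.4 to 0.7 of the parental level. Carriers that were higher included the uncoupling-protein-like SLC25A27, the iron carrier SLC25A28, the pyrimidine nucleotide carrier SLC25A36 and the basic amino acid carrier SLC25A29. The summed level of the family was 746 FPKM in persister and 1029 FPKM in parental cells, a ratio of 0.726. The FPKM values of the whole table also summed to less in persister cells, at 260213 against 333324. With both groups brought to the same sum, the ratio of the family was 0.929.

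Calls below rest on the authors' q-value being under 0.05, and differences are given as log2(FPKM + 1) in persister cells minus that in parental cells, a scale that understates changes of low genes. A q-value below 1 was taken to mean that the authors' test covered a gene. Of the 41 members so covered, 10 were called higher, 16 were called lower and 15 were not called. Of all 13617 genes tested, 69.9% were called, 30.9% higher and 39% lower, so the shares of the family, 24.4% and 39.0%, lay near or below those of the table as a whole. The median difference was -0.03 over the tested members and -0.04 over all tested genes. The median over the 10160 tested genes with at least 1 FPKM in both groups was -0.12. Relative to that median the family stood at 0.08 and all tested genes at 0.08 too, so the family did not stand apart from the table by its median, and the direction of the family as a whole depends on the scaling. The results below concern its members and substrate classes. All 10 members called higher were higher, and all 16 called lower were lower, relative to that median too, where 31.5% and 38.3% of all tested genes were called higher and lower. With both groups at the same sum, SLC25A4 and SLC25A6 changed sign and the other called members did not. This gave 12 higher and 14 lower, against 38.3% and 31.6% of all tested genes. Under both scalings the authors' q-values were kept, so the calls were fixed and only their direction could change. With the q-value required to be under 0.01, 9 members were higher and 14 lower, against 26.9% and 35.2%. A difference of at least 1 was found in 1 member upward and in 5 downward, against 2.98% and 6.01% of all tested genes. Of the 5, SLC25A10 alone stayed at or below -1 relative to the median of -0.12, at -1.10. With both groups at the same sum no member was lower by 1 or more, and SLC25A10 stood at -0.88. The member that was higher, SLC25A27, stood at 1.88 and 2.07 under these scalings. The remaining 6 members were counted as not tested by that rule and stood at or below 0.0480 FPKM in both groups. They were SLC25A2, SLC25A31, SLC25A34, SLC25A43, SLC25A47 and SLC25A53.

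**Figure D1:**
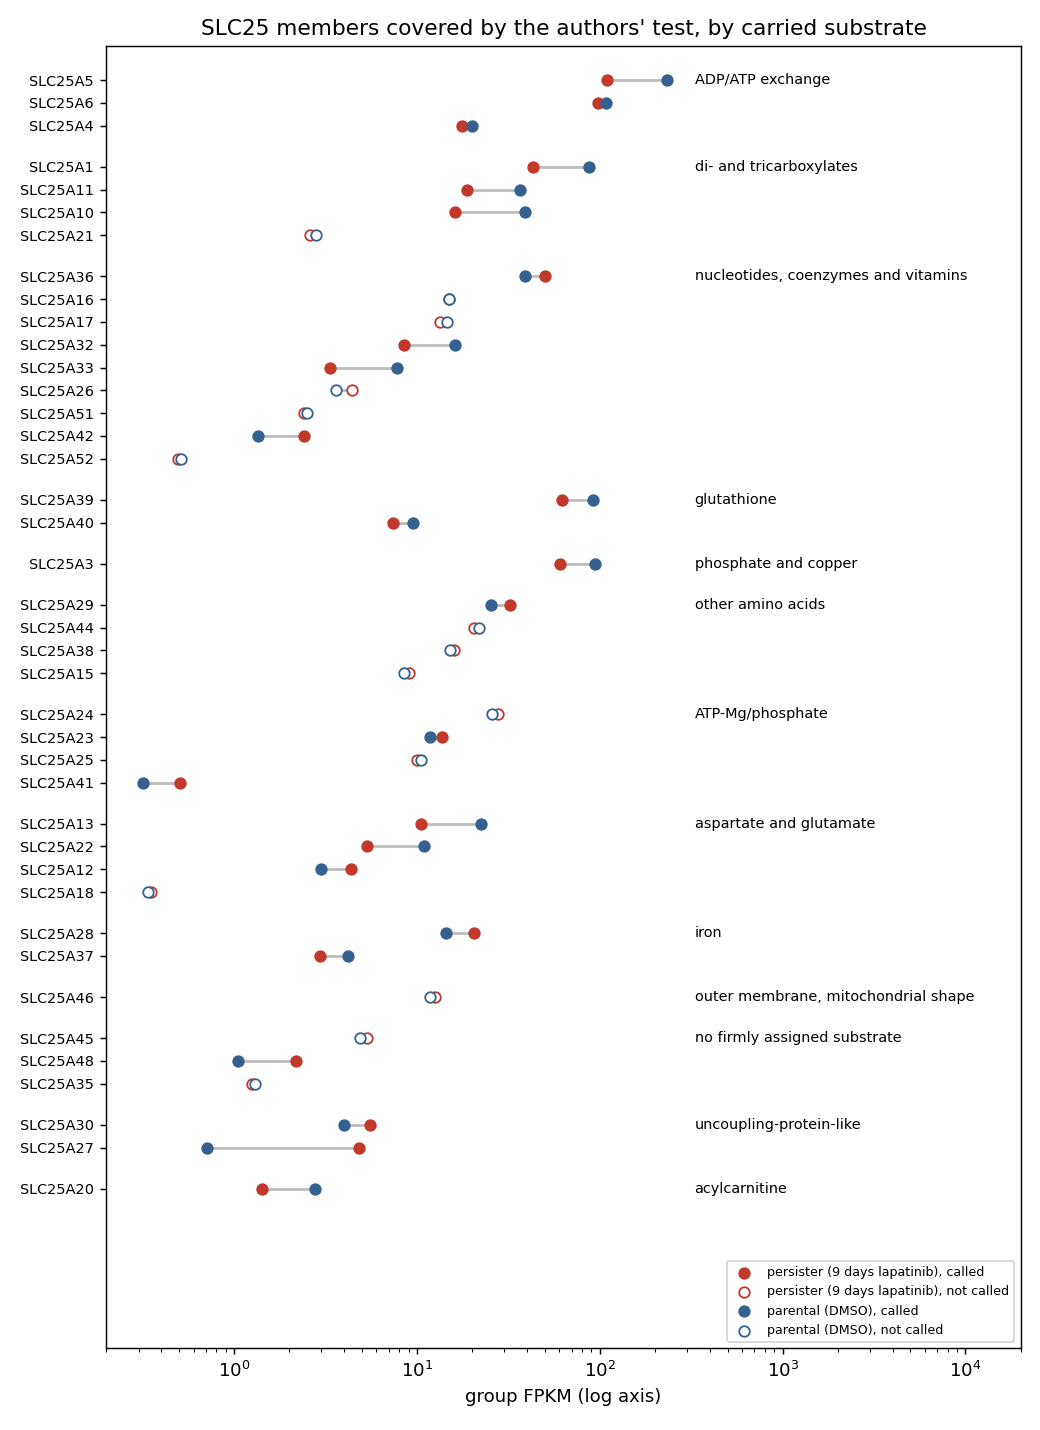
Group FPKM of the tested SLC25 members reported by name (log axis), by carried substrate, in persister and parental cells. Filled points are members called by the authors' q-value and open points those not called. The carboxylate, glutathione and phosphate carriers lie to the left in persister cells where called, and SLC25A27 shows the widest gap, at 4.81 FPKM in persister and 0.710 FPKM in parental cells.

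The ADP/ATP carriers, which export the ATP made by oxidative phosphorylation, were the most abundant class and changed unequally. SLC25A5, the isoform known for high levels in dividing cells, stood at 110 FPKM in persister and 232 FPKM in parental cells, a difference of -1.07. SLC25A6, the isoform found in most tissues, had 97.5 FPKM in persister and 109 FPKM in parental cells. SLC25A4, the isoform of heart and skeletal muscle, had 17.7 FPKM in persister and 19.9 FPKM in parental cells. The differences of SLC25A6 and SLC25A4 were -0.15 and -0.16, and their q-values in the authors' deposited table were 0.0401 and 0.0320, both of which lie above 0.01. With both groups at the same sum these differences turned to 0.20 and 0.18, so no direction can be given for them. The share of SLC25A5 in the class was 48.8% in persister and 64.3% in parental cells, and that of SLC25A6 was 43.3% in persister and 30.1% in parental cells. These shares do not depend on the scaling but do depend on the rows counted. SLC25A6 stood on 2 rows of the table under the same transcript identifier. The second row had 61.0 FPKM in persister and 68.9 FPKM in parental cells. The shares and the class sum use the row of higher level only. Counting both rows would raise the share of SLC25A6 and place it above SLC25A5 in persister cells. Pseudogenes of these genes are annotated elsewhere in the genome, 9 for SLC25A5 and 6 for SLC25A6 in GENCODE 29, so reads could be shared with them. The germ-cell isoform SLC25A31 was among the genes not tested.

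The promoters of SLC25A5 and SLC25A6, the most abundant isoforms, are shown for comparison. Each is the 250 bases before the start given by RefSeq (GRCh38.p14, coordinates of that build, not of the authors' alignment). RefSeq promoters were matched for 39 of the 47 members. Capitals mark exact matches on either strand to the GC box (GGGCGG), the CCAAT box (CCAAT), the TATA box (TATAAA), the MYC/MAX E-box (CACGTG), the ETS motif (CCGGAAG), the NRF1 motif (GCGCATGC), the SREBP motif (TCACNCCAC) and the FOXO motif (GTAAACA).
SLC25A5, chrX:119468194-119468443, plus strand: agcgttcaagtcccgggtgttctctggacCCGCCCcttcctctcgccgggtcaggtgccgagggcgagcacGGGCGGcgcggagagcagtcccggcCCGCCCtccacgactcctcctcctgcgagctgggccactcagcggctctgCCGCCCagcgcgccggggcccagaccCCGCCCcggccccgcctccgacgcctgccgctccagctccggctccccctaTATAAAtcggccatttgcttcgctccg
SLC25A6, chrX:1392114-1392363, minus strand: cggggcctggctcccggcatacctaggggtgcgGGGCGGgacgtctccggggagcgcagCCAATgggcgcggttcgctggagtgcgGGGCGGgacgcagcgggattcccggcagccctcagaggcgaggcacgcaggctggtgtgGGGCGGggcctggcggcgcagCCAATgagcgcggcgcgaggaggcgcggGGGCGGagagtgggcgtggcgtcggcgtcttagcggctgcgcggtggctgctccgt
Both windows hold GC boxes. That of SLC25A5 also holds a TATA box whose first base lies 27 bases before the start and no CCAAT box, whereas that of SLC25A6 holds CCAAT boxes and no TATA box. Over the 39 promoters of the family, 69.2% held a GC box and 46.2% a CCAAT box, against 42.3% and 33.0% of all 27305 promoters. TATA boxes were found in 7.69% of family promoters, against 11.1% of all. The E-box and the ETS motif were each found in 17.9% of family promoters, against 6.49% and 8.82% of all, and the SREBP motif in 2.56% against 0.875%. No match to the NRF1 or FOXO motif was found in these windows, which 2.81% and 2.98% of all promoters held. A match is a description of these letters and not a bound site.

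Carboxylate carriers had the lowest ratio of persister to parental level of all substrate classes. SLC25A1, which exports citrate that the cytosol turns into acetyl-CoA for fatty acids and sterols, had 43.0 FPKM in persister and 87.2 FPKM in parental cells, a difference of -1.004. SLC25A10, which exchanges malate or succinate for phosphate, had 16.1 FPKM in persister and 38.8 FPKM in parental cells, a difference of -1.22. SLC25A11, the oxoglutarate-malate carrier of the malate-aspartate shuttle, had 18.8 FPKM in persister and 36.6 FPKM in parental cells, a difference of -0.92. All 3 were called lower with q = 0 in the authors' deposited table, and each remained lower with both groups at the same sum. SLC25A11 shares annotated exon bases with RNF167, also called lower, at 47.9 FPKM in persister and 55.6 FPKM in parental cells. SLC25A10 shares such bases with AC139530.2, and 5 pseudogenes are annotated for SLC25A1. How far these enter the values was not tested. The oxodicarboxylate carrier SLC25A21, of lysine and tryptophan breakdown, was not called, at 2.58 FPKM in persister and 2.80 FPKM in parental cells. The class summed to 80.6 FPKM in persister and 165 FPKM in parental cells, a ratio of 0.487. The promoter of SLC25A1 is shown because it was the most abundant of the class.
SLC25A1, chr22:19178737-19178986, minus strand: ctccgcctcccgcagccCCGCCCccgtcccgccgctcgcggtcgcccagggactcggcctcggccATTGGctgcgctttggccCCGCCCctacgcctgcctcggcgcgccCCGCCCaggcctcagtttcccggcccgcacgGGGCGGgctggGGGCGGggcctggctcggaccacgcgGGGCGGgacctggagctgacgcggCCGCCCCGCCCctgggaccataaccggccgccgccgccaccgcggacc
The capitals mark GC boxes, the last of which overlap, and 1 CCAAT box on the opposite strand.

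Transcripts of enzymes on either side of these carriers were lower as well. All 5 genes listed for the making and use of citrate (CS, ACLY, ACACA, FASN and ME1) were called lower, with a median difference of -1.29. Fatty acid synthase (FASN) had 93.8 FPKM in persister and 298 FPKM in parental cells. ATP-citrate lyase, encoded by ACLY, which splits the citrate that SLC25A1 exports, had 27.7 FPKM in persister and 69.3 FPKM in parental cells. Citrate synthase (CS) had 50.1 FPKM in persister and 76.0 FPKM in parental cells. Each list of partner genes is described by its counts, and some by a median, beside the shares of all tested genes given above. Many listed genes stood at 30 FPKM or more, where 66.4% of all genes were called lower. The part of level in these lists was not tested.

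The aspartate and glutamate carriers moved in opposite directions. SLC25A13 (citrin), the aspartate-glutamate carrier best known from liver, had 10.5 FPKM in persister and 22.5 FPKM in parental cells, a difference of -1.03. SLC25A12 (aralar), its counterpart of brain and muscle, was called higher, at 4.34 FPKM in persister and 2.99 FPKM in parental cells, a difference of 0.42. SLC25A12 made up 29.2% of the pair in persister and 11.7% in parental cells. SLC25A22, a carrier of glutamate with protons, was called lower, at 5.33 FPKM in persister and 10.9 FPKM in parental cells, a difference of -0.92, while its relative SLC25A18 was not called, at 0.352 FPKM in persister and 0.337 FPKM in parental cells. In the authors' deposited table q was 0 for SLC25A13 and SLC25A22 and 4.59e-07 for SLC25A12. The promoters of the pair that moved apart are shown side by side.
SLC25A13, chr7:96322099-96322348, minus strand: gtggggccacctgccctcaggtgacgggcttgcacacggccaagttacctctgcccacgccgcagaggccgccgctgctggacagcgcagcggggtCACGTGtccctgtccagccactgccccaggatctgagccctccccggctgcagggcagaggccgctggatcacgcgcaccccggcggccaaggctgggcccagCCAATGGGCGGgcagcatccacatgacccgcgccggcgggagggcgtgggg
SLC25A12, chr2:171894245-171894494, minus strand: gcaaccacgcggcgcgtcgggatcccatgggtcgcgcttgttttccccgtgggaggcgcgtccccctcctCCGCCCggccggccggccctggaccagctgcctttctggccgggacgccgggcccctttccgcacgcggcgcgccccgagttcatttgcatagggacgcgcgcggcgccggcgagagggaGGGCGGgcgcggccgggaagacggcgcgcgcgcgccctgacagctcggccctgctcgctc
The window of SLC25A13 holds an E-box, whose first base lies 154 bases before the start, and a CCAAT box joined to a GC box. That of SLC25A12 holds GC boxes alone. Over the family, E-boxes were found in 1 of 8 promoters of members called higher and in 2 of 13 of those called lower. The libraries did not keep strand, and SLC25A12 shares annotated exon bases with METAP1D, which was also called higher, at 6.24 FPKM in persister and 4.75 FPKM in parental cells. How far that overlap enters the value of SLC25A12 was not tested.

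Of the 4 enzymes of the malate-aspartate shuttle, 3 were called lower and 1 higher. The mitochondrial forms were lower, with MDH2 at 162 FPKM in persister and 296 FPKM in parental cells and GOT2 at 47.9 FPKM in persister and 87.6 FPKM in parental cells. The cytosolic MDH1 had 63.4 FPKM in persister and 75.8 FPKM in parental cells, and the cytosolic GOT1 was called higher, at 47.1 FPKM in persister and 39.9 FPKM in parental cells. With both groups at the same sum, 2 of the 4 were lower and 2 higher. All 7 enzymes listed for proline, ornithine and glutamate were called lower, with a median of -0.63, and 6 stayed lower at the same sum. Among them PYCR1, which makes proline, had 45.9 FPKM in persister and 139 FPKM in parental cells. GLUD1 (glutamate dehydrogenase) had 37.0 FPKM in persister and 54.5 FPKM in parental cells, and ALDH18A1, of proline synthesis, had 31.7 FPKM in persister and 49.8 FPKM in parental cells.

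**Figure D2:**
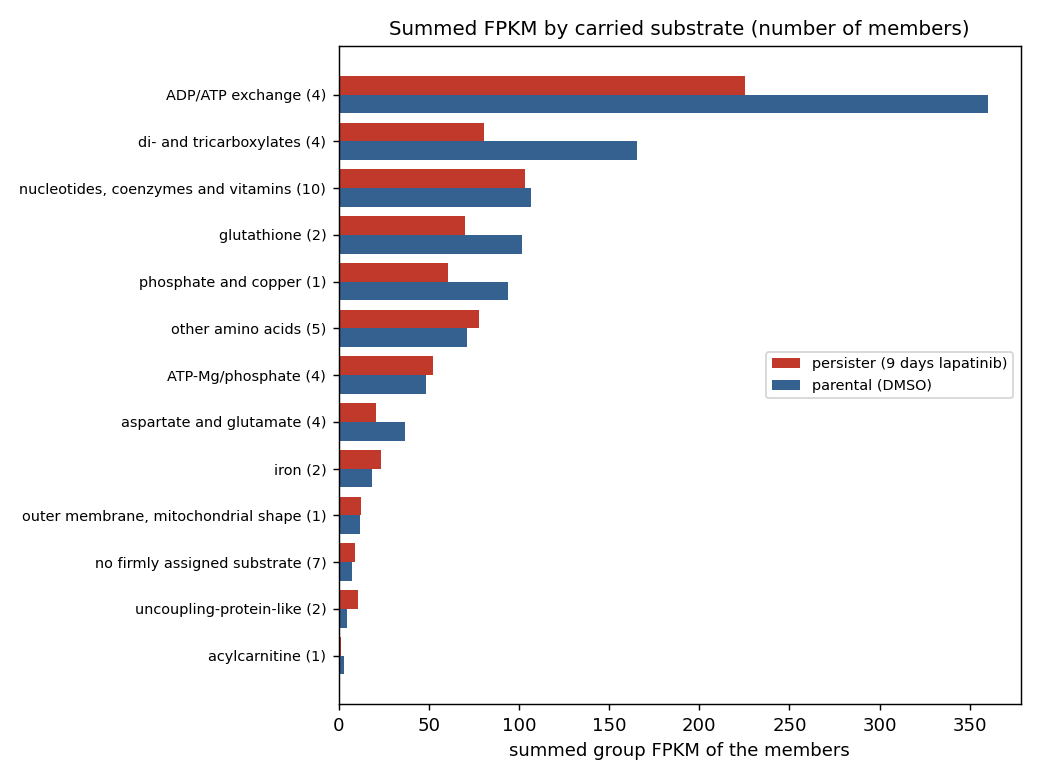
Summed group FPKM of each substrate class in persister and parental cells, with the number of members in brackets. The ADP/ATP class summed to 225 FPKM in persister and 360 FPKM in parental cells, and the carboxylate class to 80.6 FPKM in persister and 165 FPKM in parental cells.

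The phosphate carrier and both glutathione carriers were called lower. SLC25A3, which brings in the phosphate for ATP synthesis and carries copper for cytochrome oxidase, had 60.6 FPKM in persister and 93.9 FPKM in parental cells, a difference of -0.62. SLC25A39, needed for glutathione in mitochondria, had 62.3 FPKM in persister and 91.9 FPKM in parental cells, a difference of -0.55 (q = 1.76e-11 in the authors' deposited table). Its relative SLC25A40 had 7.43 FPKM in persister and 9.52 FPKM in parental cells, a difference of -0.32 (q = 0.00366 in the authors' deposited table). SLC25A40 shares annotated exon bases with the replication gene DBF4, which stood at 2.76 FPKM in persister and 11.7 FPKM in parental cells, and its difference was -0.00103 with both groups at the same sum. The share of SLC25A40 in the pair was 10.7% in persister and 9.39% in parental cells, so the 2 glutathione carriers kept nearly the same proportion. SLC25A20, which brings acylcarnitines in for fatty acid oxidation, was called lower at 1.41 FPKM in persister and 2.76 FPKM in parental cells, a difference of -0.64 (q = 3.74e-12 in the authors' deposited table). Among the enzymes of the carnitine shuttle, CRAT, CPT1A and CPT2 were called lower and CPT1B higher. The acetyltransferase CRAT had 14.6 FPKM in persister and 61.3 FPKM in parental cells, CPT1A had 38.4 FPKM in persister and 58.9 FPKM in parental cells, and CPT1B had 29.4 FPKM in persister and 17.9 FPKM in parental cells.

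Iron carriers moved apart. SLC25A28 (mitoferrin 2), the form of most tissues, was called higher at 20.5 FPKM in persister and 14.4 FPKM in parental cells, a difference of 0.48 (q = 7.69e-08 in the authors' deposited table). SLC25A37 (mitoferrin 1), the form of red cell precursors, was called lower at 2.96 FPKM in persister and 4.20 FPKM in parental cells, a difference of -0.39 (q = 7.50e-05 in the authors' deposited table). Together the pair summed to 23.5 FPKM in persister and 18.6 FPKM in parental cells, of which SLC25A28 made up 87.4% in persister and 77.4% in parental cells. Of 8 genes that use iron in mitochondria, 7 were called lower and none higher. With both groups at the same sum, 6 of these 7 were lower and 1 higher. The scaffold of iron-sulfur clusters ISCU had 33.6 FPKM in persister and 46.1 FPKM in parental cells, and ALAS1, the first enzyme of heme synthesis, had 12.0 FPKM in persister and 23.6 FPKM in parental cells. The cysteine desulfurase NFS1 had 10.8 FPKM in persister and 16.0 FPKM in parental cells. Ferrochelatase (FECH) was not called, at 10.1 FPKM in persister and 9.39 FPKM in parental cells.

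Carriers of nucleotides, coenzymes and vitamins, 10 members, moved both ways, with 2 called higher, 3 lower and 5 not called. SLC25A36, a pyrimidine nucleotide carrier, had 50.4 FPKM in persister and 39.0 FPKM in parental cells, a difference of 0.36 (q = 1.98e-07 in the authors' deposited table). Its relative SLC25A33 was called lower, at 3.34 FPKM in persister and 7.76 FPKM in parental cells, a difference of -1.01. SLC25A36 thus made up 93.8% of the pair in persister and 83.4% in parental cells. SLC25A32, which supplies folate and FAD, had 8.52 FPKM in persister and 16.1 FPKM in parental cells, a difference of -0.85 (q = 4.44e-12 in the authors' deposited table), and shares annotated exon bases with DCAF13, which was also lower, at 22.5 FPKM in persister and 39.4 FPKM in parental cells. The coenzyme A carrier SLC25A42 was called higher, at 2.41 FPKM in persister and 1.36 FPKM in parental cells, a difference of 0.53 (q = 9.33e-11 in the authors' deposited table).

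The other 5 members of the class were not called. SLC25A16, linked to coenzyme A in mitochondria, had 14.9 FPKM in both groups, and the peroxisomal carrier SLC25A17 had 13.3 FPKM in persister and 14.6 FPKM in parental cells. The S-adenosylmethionine carrier SLC25A26 had 4.39 FPKM in persister and 3.61 FPKM in parental cells. The NAD carrier SLC25A51 had 2.42 FPKM in persister and 2.50 FPKM in parental cells, and SLC25A52, a near-identical copy whose reads cannot be safely separated, had 0.492 FPKM in persister and 0.511 FPKM in parental cells. The class summed to 104 FPKM in persister and 106 FPKM in parental cells, and the direction of that sum depends on the scaling.

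**Figure D3:**
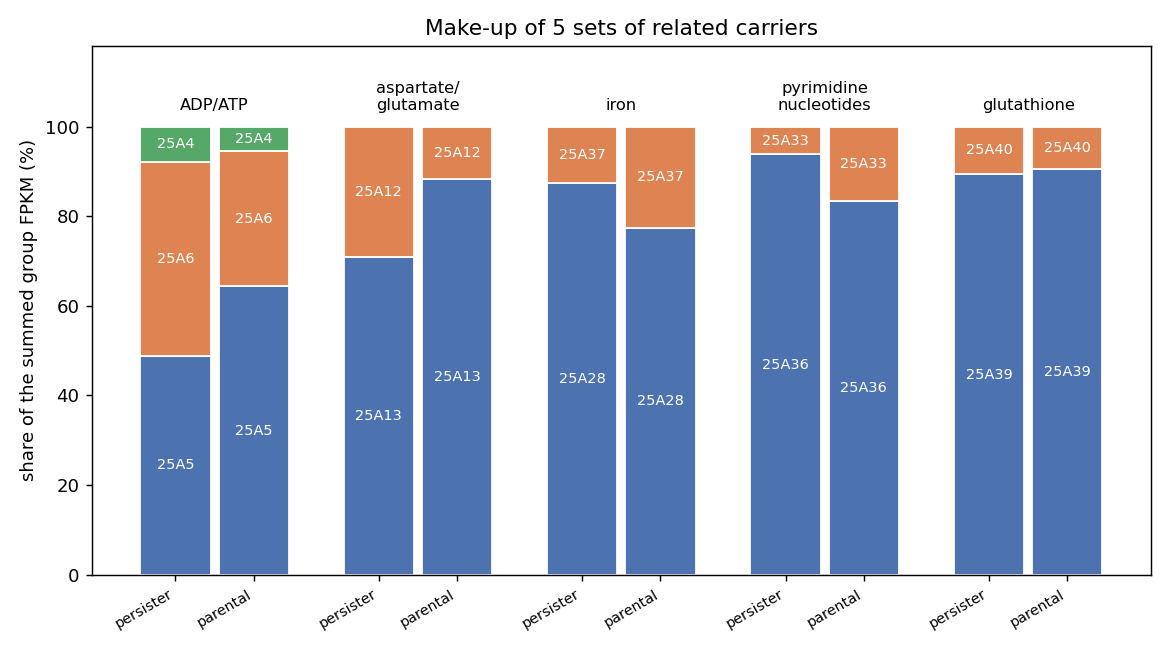
Share of each member in the summed group FPKM of 5 sets of related carriers, in persister and parental cells. SLC25A6 enters with its row of higher level only. SLC25A12 rises to 29.2% of its pair in persister cells, against 11.7% in parental cells, while SLC25A40 takes 10.7% in persister and 9.39% in parental cells.

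Carriers of other amino acids and of ATP-Mg with phosphate were either called higher or not called. SLC25A29, a carrier of arginine and lysine, had 32.4 FPKM in persister and 25.5 FPKM in parental cells, a difference of 0.33 (q = 2.53e-05 in the authors' deposited table). Not called were SLC25A44, a carrier of branched-chain amino acids, at 20.4 FPKM in persister and 21.8 FPKM in parental cells, and SLC25A38, which brings in glycine for heme synthesis, at 15.9 FPKM in persister and 15.2 FPKM in parental cells. The ornithine carrier SLC25A15 had 9.01 FPKM in persister and 8.53 FPKM in parental cells and was not called. Among the calcium-regulated ATP-Mg carriers, SLC25A23 was called higher at 13.6 FPKM in persister and 11.8 FPKM in parental cells, a difference of 0.19, with a q-value of 0.0205 in the authors' deposited table. SLC25A41 was called higher at 0.509 FPKM in persister and 0.316 FPKM in parental cells (q = 0.00958 in the authors' deposited table). SLC25A24 had 27.8 FPKM in persister and 25.7 FPKM in parental cells and SLC25A25 had 10.0 FPKM in persister and 10.5 FPKM in parental cells, and neither was called. A q-value above 0.05 does not show that these levels were equal.

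The uncoupling-protein-like carriers SLC25A27 and SLC25A30 were both called higher. SLC25A27 (UCP4), known mainly from brain, was at 4.81 FPKM in persister and 0.710 FPKM in parental cells, 6.78 times as high, with a difference of 1.77 and q = 0 in the authors' deposited table. It was the one member higher by at least 1. SLC25A30, known from kidney, had 5.50 FPKM in persister and 4.01 FPKM in parental cells, a difference of 0.38 (q = 9.34e-06 in the authors' deposited table). Of 4 tested relatives under other names, 3 were called lower and 1 higher, and the uncoupling proteins among them, UCP2 and UCP3, moved apart. UCP2 had 215 FPKM in persister and 468 FPKM in parental cells, more than any member counted here, MTCH1 had 67.1 FPKM in persister and 94.6 FPKM in parental cells, and MTCH2 had 39.1 FPKM in persister and 60.6 FPKM in parental cells. UCP3 was called higher, at 0.776 FPKM in persister and 0.413 FPKM in parental cells. The promoter of SLC25A27 is shown as that of the member with the widest difference.
SLC25A27, chr6:46652725-46652974, plus strand: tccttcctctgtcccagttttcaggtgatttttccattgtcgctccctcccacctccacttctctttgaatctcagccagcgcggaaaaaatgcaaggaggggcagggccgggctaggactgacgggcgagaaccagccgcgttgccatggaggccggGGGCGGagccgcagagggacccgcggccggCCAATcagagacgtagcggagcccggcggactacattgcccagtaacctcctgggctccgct
It holds 1 GC box and 1 CCAAT box, and 63.2% of its bases are G or C, against 73.6% for SLC25A5 and 81.6% for SLC25A1.

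Of the remaining members, SLC25A48 was called higher at 2.19 FPKM in persister and 1.05 FPKM in parental cells, a difference of 0.63 (q = 5.16e-09 in the authors' deposited table). It shares annotated exon bases with the chemokine gene CXCL14, which was also called higher, at 23.7 FPKM in persister and 13.8 FPKM in parental cells, and the part of that overlap in the value was not tested. SLC25A46, a protein of the outer membrane that acts on mitochondrial shape, was not called, at 12.5 FPKM in persister and 11.7 FPKM in parental cells. SLC25A45 had 5.31 FPKM in persister and 4.87 FPKM in parental cells, SLC25A35 had 1.26 FPKM in persister and 1.30 FPKM in parental cells, and neither was called. In all, 20 members shared annotated exon bases with another gene in GENCODE 29, 11 of them among the 26 called members. These include SLC25A5, SLC25A22, SLC25A29 and SLC25A30, besides called members for which an overlap is given above. Pseudogenes are annotated for 13 members, among them SLC25A3 and SLC25A39 with 2 each and SLC25A20 and SLC25A36 with 1 each. The part of these overlaps and pseudogenes in the values was not tested.

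Transcripts of proteins that work beside the carriers were mostly lower. All 5 genes for the outer membrane channel and for pyruvate entry were called lower, the last comprising MPC1 and MPC2. With both groups at the same sum, 4 of the 5 were lower and 1 higher. The channel VDAC1 had 64.5 FPKM in persister and 129 FPKM in parental cells, a difference of -0.99. VDAC3 had 31.1 FPKM in persister and 39.4 FPKM in parental cells, a difference of -0.33, and VDAC2 had 26.2 FPKM in persister and 42.4 FPKM in parental cells, a difference of -0.68. Of 7 genes for the import of carriers, 5 were called lower and none higher, and 4 of these 5 stayed lower at the same sum. The chaperone TIMM10 of the intermembrane space had 22.9 FPKM in persister and 50.0 FPKM in parental cells, its relative TIMM13 had 26.7 FPKM in persister and 37.8 FPKM in parental cells, and the receptor TOMM20 was not called, at 117 FPKM in persister and 119 FPKM in parental cells. For comparison, 68 of 75 mitochondrial ribosomal protein genes were called lower and none higher, with a median of -0.63. Of these, 64 were lower and 4 higher at the same sum. Of 188 other SLC genes tested, 61 were called higher and 75 lower, with a median of -0.05. At the same sum these counts were 73 higher and 63 lower. The difference between these sets and the carriers was not tested.

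Level went along with direction in the family and in the table as a whole. Of the 6 members with a mean of at least 30 FPKM, 5 were called lower and 1 higher, and of all genes at that level 66.4% were called lower and 15.1% higher. Among the 15 members between 10 and 30 FPKM, 5 were called lower and 3 higher, against 47.6% and 25.0% of all genes. Among the 17 members between 1 and 10 FPKM, 6 were called lower and 5 higher, against 33.6% and 35.2% of all genes. Across the 41 tested members, Spearman's rho between mean FPKM and the difference was -0.36, and across all 13617 tested genes it was -0.29. These correlations are across genes, which share the same libraries. With transcript length, rho was 0.06 over 40 members and 0.18 over 13355 genes. The part of level in the falls of SLC25A5, SLC25A1, SLC25A3 and SLC25A39 was not tested.

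**Figure D4:**
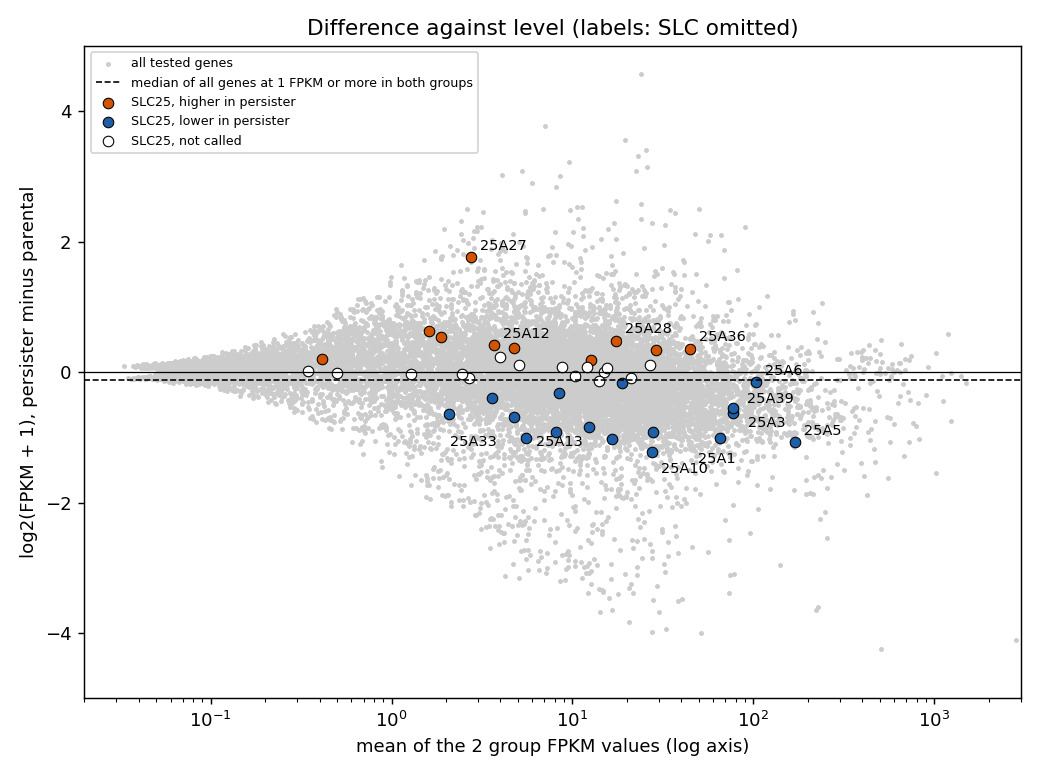
Difference in log2(FPKM + 1), persister minus parental, against the mean of the group FPKM values (log axis) for all tested genes (grey) and for the SLC25 members. Members called higher are orange, those called lower blue and those not called white. The dashed line is the median of -0.12, and 5 of the 6 members at 30 FPKM or more are called lower.

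Marker levels were those of luminal epithelial cells. All 7 luminal epithelial markers stood between 18.2 and 623 FPKM in persister and between 12.4 and 841 FPKM in parental cells. Of 6 fibroblast markers, COL1A1 had 8.73 FPKM in persister and 13.4 FPKM in parental cells, and the others stood at or below 0.0164 FPKM in both groups. Of 5 immune markers, LYZ and CD68 were the ones above trace, at 4.06 and 1.97 FPKM in persister and 4.61 and 2.30 FPKM in parental cells. The 4 endothelial markers reached at most 0.0884 FPKM in persister and 0.592 FPKM in parental cells. ERBB2 itself was listed at 0 in both groups, as were 1527 rows of the table in all. An exact 0 there can be a failed estimate, so no absence of expression can be read from it.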

How the data were processed

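RNA-seq libraries of persister (3) and parental (2) BT474 cells, described by the submitters as biological replicates, came from a kit that does not keep strand, per the labels' protocols. Tools given in the submitters' processing notes are TopHat2 2.0.6, CASAVA 1.8, Cuffdiff 2.0.2 and Cufflinks, with hg18 as the build and no settings. The authors combined the libraries of a group into 1 FPKM value per gene, per the file headers, so depth, SD and counting error are unknown. A q-value of their own comparison was deposited beside it, adjusted in a way not given in the sources used here. Values per library were planned for but are not in the table used here, so the authors' q-value under 0.05 served as the call, among genes with a q-value below 1, and no test was computed here.

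Of the 18803 rows, 48 matched the family. For the 269 symbols found on several rows, the row of highest mean level was kept. Differences are log2(FPKM + 1). Substrate classes, partner lists and motifs came from general knowledge. Members, lists, motifs and related pairs were chosen with earlier results of these data known. Members at 10 FPKM or more in either group, or called with a difference of at least 0.5 (28 members), were chosen for description. So were the 3 genes of each partner list with the highest mean FPKM. Both FPKM values are printed for the chosen genes that are reported by name, and the difference or the q-value for some of them. GOT1, FECH, UCP3 and the overlapping neighbours were added after their values were seen. SLC25A14 was not analysed here, and 1 called member is not reported by name but remains in the counts. Overlaps, pseudogenes and transcript lengths are from GENCODE 29, promoters from RefSeq (GRCh38.p14), whose build differs from that of the authors. The counting of calls was tested on simulated data. Python 3.11.15 with pandas 2.3.3, SciPy 1.17.1 and matplotlib 3.10.9 was used. The alternatives were other q thresholds, pseudocounts, scalings, a filter on low values and added rows.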

Additional observations from a re-analysis of the deposited data

How the results depend on the processing

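No value per library was at hand, so leaving out a replicate could not be run, and no spread between replicates limits these statements. No paired analysis was possible because the table holds 1 value per group. The counts of called members (10 higher, 16 lower) stayed within 1.5 times with a q-value under 0.01, with members under 1 FPKM removed and with added rows. They also did so under both other scalings, where the authors' q-values were kept and only the direction could change. With a difference of at least 1 required on the deposited scale, 1 member was higher and 5 were lower, and the count of lower members depends on the scaling. The family median of -0.03 turned to 0.0817 relative to the all-gene median and to 0.21 with both groups at the same sum, a shift of 0.36.

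At the same sum, differences of described members that changed sign were those of SLC25A4 (0.18), SLC25A6 (0.20), SLC25A17 (0.21), SLC25A25 (0.27) and SLC25A44 (0.25). Relative to the all-gene median, SLC25A25 (0.0592) and SLC25A44 (0.0260) did so. On the log2 scale, the ratio of summed FPKM at the same sum was -0.32 for ADP/ATP, -0.68 for carboxylates, 0.32 for nucleotides and coenzymes (0.0748 relative to the all-gene median, -0.04 as deposited), -0.18 for glutathione, -0.27 for phosphate, 0.49 for other amino acids, 0.46 for ATP-Mg, -0.48 for aspartate and glutamate, 0.69 for iron, 0.45 for SLC25A46, 0.64 for members without an assigned substrate, 1.49 for the uncoupling-protein-like pair and -0.61 for acylcarnitine. Leaving out the most abundant member of a class was done on the deposited scale, not at the same sum. On that scale the ratio went from -0.68 to -0.16 for ADP/ATP and from -0.04 to -0.34 for nucleotides and coenzymes. It went from -0.54 to -0.36 for glutathione and from 0.13 to -0.00472 for other amino acids. For aspartate and glutamate it went from -0.84 to -0.51, and for iron from 0.34 to -0.50. For members without an assigned substrate it went from 0.28 to 0.54, and for the uncoupling-protein-like pair from 1.13 to 2.76. These sums thus rest in part on SLC25A5, SLC25A36, SLC25A29 and SLC25A28.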
